A study of Mus musculus with 6 samples.

Results

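The cells described are the main cluster of the authors' class Proximal s1/s2/s3 in mouse kidney. They are the cells that the deposited annotation places in that class and, by its second clustering, in the cluster named Proximal s1/s2 sub2. There were 2242 of them among 22154 cells (10.1%), and no cell of that second cluster lay in another class. The class held 531 further cells, all in a cluster named Proximal sub1, which are called sub1 cells here. The nearest other populations were 2308 cells of the main Proximal s1/s2 cluster, called s1/s2 cells, and 4475 Proximal s2/s3 cells, called s2/s3 cells. All other proximal cells together were 7972, and 11940 cells lay outside the proximal classes.

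The samples were single-cell suspensions of kidney from C57BL/6 (C57BL/6J in the treatment notes) mice aged 16 weeks, labelled WT (wild type) in the titles. In 3 samples the mice had eaten furosemide at 70 mg/kg body weight in a gel diet for 1 week, and in 3 samples the same diet with vehicle. The diet of both groups held sodium at 104 µmol per kcal. Furosemide is a loop diuretic that acts on salt uptake in the thick ascending limb, downstream of the cells described. Whether a sample was 1 mouse or a pool is not stated, so p-values measure the spread between samples, which may be technical.

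Counts covered a panel of 456 chosen genes, read on the BD Rhapsody bead platform. The cluster held 3392828 counts, with a median of 1406 counts (range 12 to 5581) and 121 detected genes per cell. It gave 297, 358 and 433 cells in furosemide libraries 2, 4 and 6, and 410, 379 and 365 cells in vehicle libraries 1, 3 and 5. Of all barcodes 196 occurred in more than 1 library, and 37 cells of the cluster carried one. Levels are given as CPM, a gene's counts per a fixed total of a cell group's panel counts in a library, so they compare a gene between cells but not 1 gene with another of different length or primer yield.

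The proximal tubule reclaims most of the filtered water, sodium, glucose, amino acids, phosphate and bicarbonate, and secretes organic anions, the route by which furosemide reaches the tubule fluid. Its S1 and S2 segments lie in the cortex and S3 runs into the outer medulla. Early cells carry the high-capacity glucose transporter Slc5a2 and make glucose through Pck1 and G6pc, while late cells carry other transporters and more cytochrome P450 enzymes. In mouse, late cells also make Kap, the kidney androgen-regulated protein.

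The upstream sequences are shown for Kap, the single gene that passed the test between treatments, and for G6pc, a marker given for these cells, with which Kap is contrasted below.

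Kap upstream, chr6:133853763-133853917, minus strand: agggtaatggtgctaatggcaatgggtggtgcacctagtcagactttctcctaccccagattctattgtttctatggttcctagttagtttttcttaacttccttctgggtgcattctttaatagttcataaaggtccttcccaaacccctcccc
G6pc upstream, chr11:101367466-101367560, plus strand: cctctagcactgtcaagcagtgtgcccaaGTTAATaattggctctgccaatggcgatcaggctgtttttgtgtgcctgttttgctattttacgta

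Both run 5′ to 3′ on the gene's strand from RefSeq (GRCm38.p6), from base 250 before the RefSeq start, and stop before the first exon base that GENCODE annotates. Kap is shown over 155 bases and G6pc over 95. Capitals mark GTTAAT, an arm of the HNF1 palindrome, searched on both strands. It is in the G6pc window, 221 bases before the start, as in 2.62% of 32851 upstream windows over the same bases, and not in the Kap window, against 4.12% of windows of that length. AGAACA, an arm of the androgen and glucocorticoid receptor element, was in neither window, against 10.6% of windows at Kap's length and 6.61% at that of G6pc. These are matches of letters, and say nothing of binding. Of the 5 given markers, 4 had an entry in the RefSeq table.

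All given markers were detected, and each lay far above the cells outside the proximal classes. Slc4a4, the basolateral sodium-bicarbonate cotransporter, had 5901, 7089 and 7612 CPM in furosemide libraries 2, 4 and 6, and 5553, 6915 and 7636 CPM in vehicle libraries 1, 3 and 5. G6pc, the last enzyme of glucose production, had 16359, 24831 and 21457 CPM in furosemide libraries, and 14406, 14123 and 16668 CPM in vehicle libraries. Slc22a8, a basolateral organic anion transporter, averaged 12196 ± 1247 CPM (SD, n = 6 libraries). Cells outside the proximal classes had means of 47.9 CPM for Slc4a4, 190.2 CPM for G6pc and 48.5 CPM for Slc22a8. Ugt3a2, a glycosyltransferase, averaged 5109.7 ± 458 CPM, and Gatm, the first enzyme of creatine synthesis, 528 ± 103 CPM. Each cell was also thinned to 500 counts at random, which 2082 members had. Of these thinned members, 97.2% held a count of G6pc, 94.9% of Slc22a8, 90.5% of Slc4a4, 80.6% of Ugt3a2 and 20.6% of Gatm. Thinned cells outside the proximal classes held G6pc in 7.39%, Slc22a8 in 2.49%, Slc4a4 in 2.48%, Ugt3a2 in 1.03% and Gatm in 0.121%.

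The data go with the name s1/s2/s3 for the early segments and against it for S3. The clustering used these genes, so the comparisons of levels between clusters are descriptions with no test. Slc5a2, the S1 glucose transporter, averaged 29339 CPM in the main cluster, 37355 CPM in s1/s2 cells and 1486 CPM in s2/s3 cells. Spp2, a secreted phosphoprotein listed here among S1 genes, averaged 27240.2 CPM in the main cluster, 37815 CPM in s1/s2 cells and 1148 CPM in s2/s3 cells. The 7 S1 genes of the panel summed to 96512 to 111093 CPM in furosemide libraries of the cluster and 85916 to 101733 CPM in vehicle libraries. In s2/s3 cells their sums were 7277 to 11695 CPM with furosemide and 7901 to 12034 CPM with vehicle, so the S1 sum of every main cluster library exceeded theirs several times over. Slc7a13, an aspartate and glutamate transporter of S3, had 66.7 to 97.2 CPM over the 6 libraries of the main cluster, against 7784 to 13042 CPM in s2/s3 cells. It was seen in 2.83% of thinned members, beside 1.76% of cells outside the proximal classes and 78.1% of s2/s3 cells. Slc22a7, an organic anion transporter, averaged 3.85 CPM in the main cluster against 467 CPM in s2/s3 cells. Slc5a1, the S3 glucose transporter, averaged 5.83 CPM against 249 CPM. Acy3, an aminoacylase that every proximal group carried, was the 1 gene of the S3 list at 100 CPM or more, with 11565 CPM in the main cluster and 26331 CPM in s2/s3 cells.

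**Figure D1:**
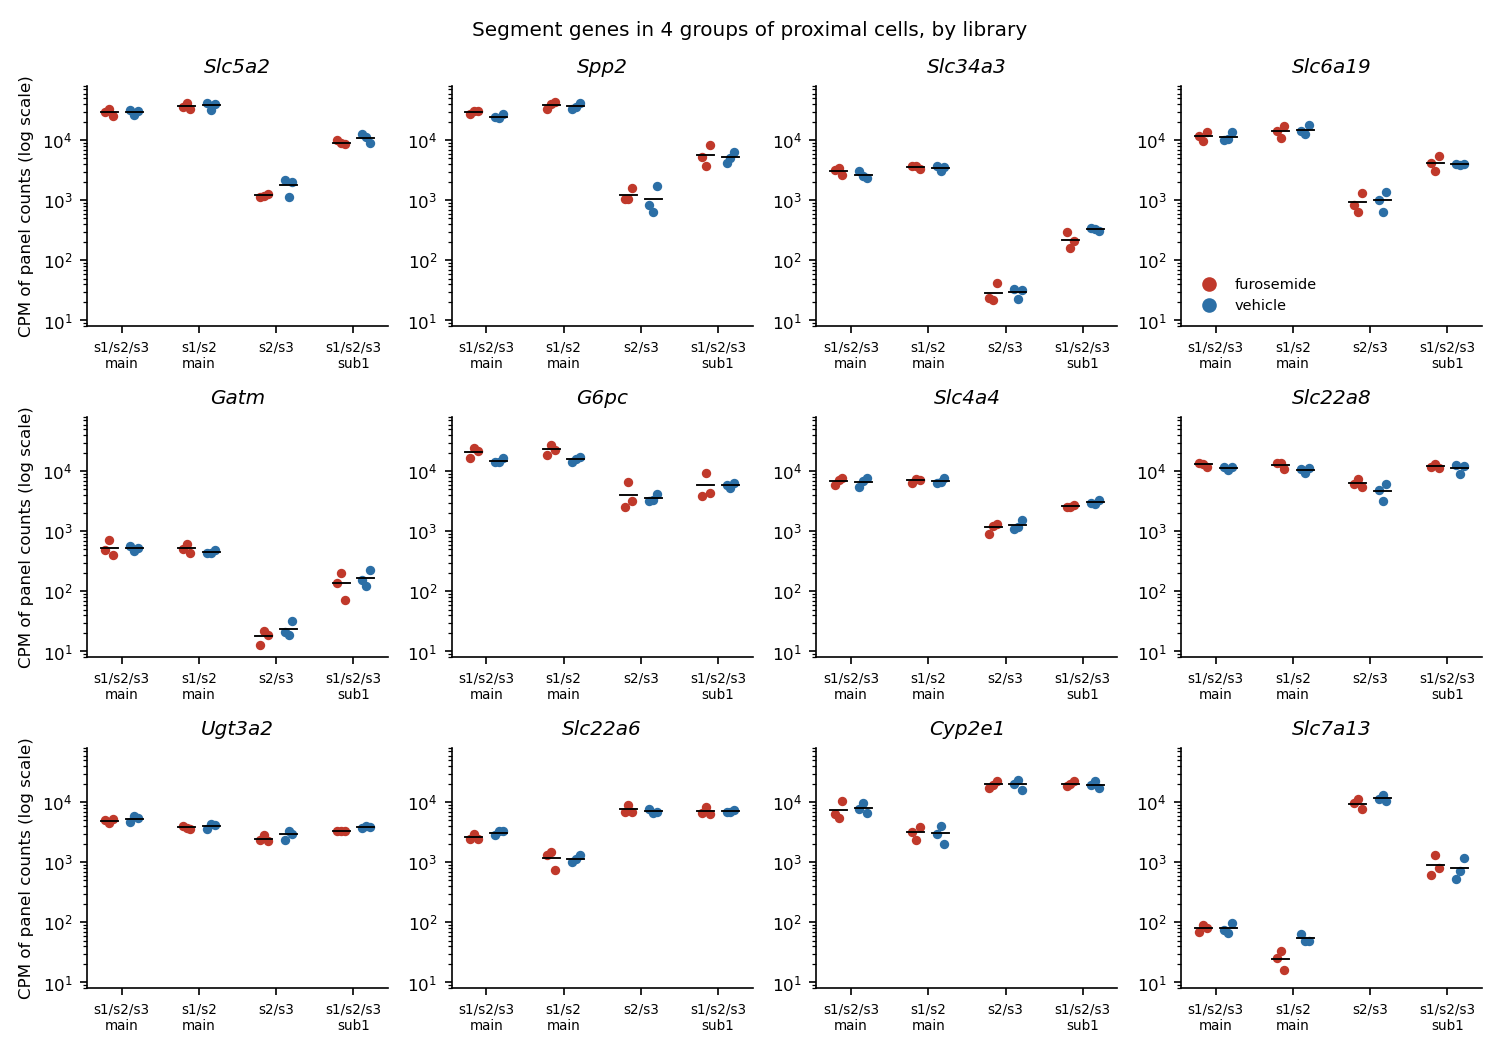
Level of 12 segment genes in the s1/s2/s3 main cluster, s1/s2 cells, s2/s3 cells and sub1 cells, in CPM of panel counts on a log axis; points are libraries (furosemide left of vehicle) and bars are means of 3. The main cluster sits beside s1/s2 cells for Slc5a2, Spp2 and Gatm, between them and s2/s3 cells for Slc22a6 and Cyp2e1, and more than 7 log2 units below s2/s3 cells for Slc7a13.

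Against s1/s2 cells, the nearest population, the cluster had more of the S2 genes and less of several S1 genes. Slc22a6, another basolateral organic anion transporter, had 2427, 2979 and 2459.9 CPM in furosemide libraries of the main cluster and 2869, 3266 and 3270.1 CPM in its vehicle libraries. In s1/s2 cells it had 1325, 1458 and 738 CPM with furosemide and 1007, 1141 and 1309 CPM with vehicle. Every library of the main cluster lay above every library of s1/s2 cells, a log2 ratio of the means of 1.31. The ratio was 1.33 for Cyp2e1, a cytochrome P450, 3.12 for Slc5a10, a mannose and fructose transporter, 1.98 for Tmigd1, an adhesion protein, and 1.05 for Napsa, an aspartic protease, each higher in 6 of 6 libraries. In the main cluster Slc5a10 varied widely, from 55.7 CPM in furosemide library 2 to 438 CPM in furosemide library 6. Slc5a2 (-0.35), Spp2 (-0.47) and Slc6a19, the neutral amino acid transporter of the brush border (-0.32), were lower in 6 of 6. Ttr, transthyretin, had the lowest ratio among genes at 100 CPM or more, -1.44, with 5084 to 7744 CPM in the main cluster and 12559 to 21178 CPM in s1/s2 cells. Of 217 genes at 100 CPM or more in either, 78 (35.9%) were higher in every library and 36 (16.6%) lower, with a median ratio of 0.11. Of the listed S2 genes 4 of 5 were higher in every library (median 0.58), and of the S1 genes 4 of 7 were lower (median -0.13).

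Immediate early and stress genes were also higher than in s1/s2 cells. All 9 members of that list at 100 CPM or more (Atf3, Atf4, Dnajb1, Egr1, Fos, Hspa1a, Hspa5, Jun and Xbp1) were higher in 6 of 6 libraries, with a median ratio of 0.45, beside 35.9% and 0.11 over all genes. Fos, a transcription factor subunit induced soon after a stimulus, had 17648, 20896 and 20992 CPM in furosemide libraries and 21845, 23731 and 24532 CPM in vehicle libraries of the main cluster. In s1/s2 cells it had 14693 to 17655 CPM with furosemide and 15475 to 15538 CPM with vehicle. Atf3, a stress-induced transcription factor, averaged 2829.6 CPM in the main cluster against 1268 CPM in s1/s2 cells (log2 1.16). Cyr61, a matricellular protein, averaged 8084 CPM against 3620.1 CPM (1.16). Among immune signals, Cxcl10, an interferon-induced chemokine, had 4408 CPM against 1827 CPM (1.27), Cxcl1, a neutrophil chemokine, 1999.6 CPM against 1003 CPM (1.00), and Icam1, an adhesion receptor for leukocytes, 1767 CPM against 952 CPM (0.89). Hmox1, which degrades heme, had 5751 CPM against 2467 CPM (1.22), and the growth regulator Myc 512 CPM against 178 CPM (1.53). Each of these was higher in 6 of 6 libraries. In s2/s3 cells Cxcl1 averaged 2409 CPM with furosemide and 1750 CPM with vehicle, so it does not set the cluster apart from them. Fos, Jun, Egr1, Myc and Hspa1a averaged less in s2/s3 cells in both treatments. Kap takes a large part of the counts of s2/s3 cells, as given below, which lowers their other levels. Cells outside the proximal classes carried 41171 CPM of Fos and 22175 CPM of Atf3, above the main cluster, and the part of RNA from other cells was not tested.

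C3, the central complement component, had the highest ratio both to s1/s2 cells and to all other proximal cells among genes at 100 CPM or more in either. It had 75.0, 227 and 400.5 CPM in furosemide libraries 2, 4 and 6 and 41.5, 206 and 419 CPM in vehicle libraries 1, 3 and 5. Libraries of both treatments overlapped over this wide range. Within each treatment C3 rose with library number, and the cause was not tested. Its mean was 228 CPM, against 15.7 CPM in s1/s2 cells (log2 3.86) and 18.4 CPM in all other proximal cells (log2 3.63). Few cells carried it: 2.21% of thinned members held a count, against 0.583% of s1/s2 cells and 1.07% of cells outside the proximal classes. Vcam1, an adhesion molecule known from injured proximal cells, had 36.8 CPM against 0.915 CPM in s1/s2 cells and was seen in 0.48% of thinned members, beside 1.60% outside the proximal classes. The injury gene Havcr1 averaged 17.2 CPM, and Lcn2 was seen in 0.144% of thinned members against 15.1% outside the proximal classes. Of the genes of dividing cells, Mki67 was seen in 0.24% and Birc5 in 0.48% of thinned members, each beside 0.724% outside the proximal classes.

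**Figure D2:**
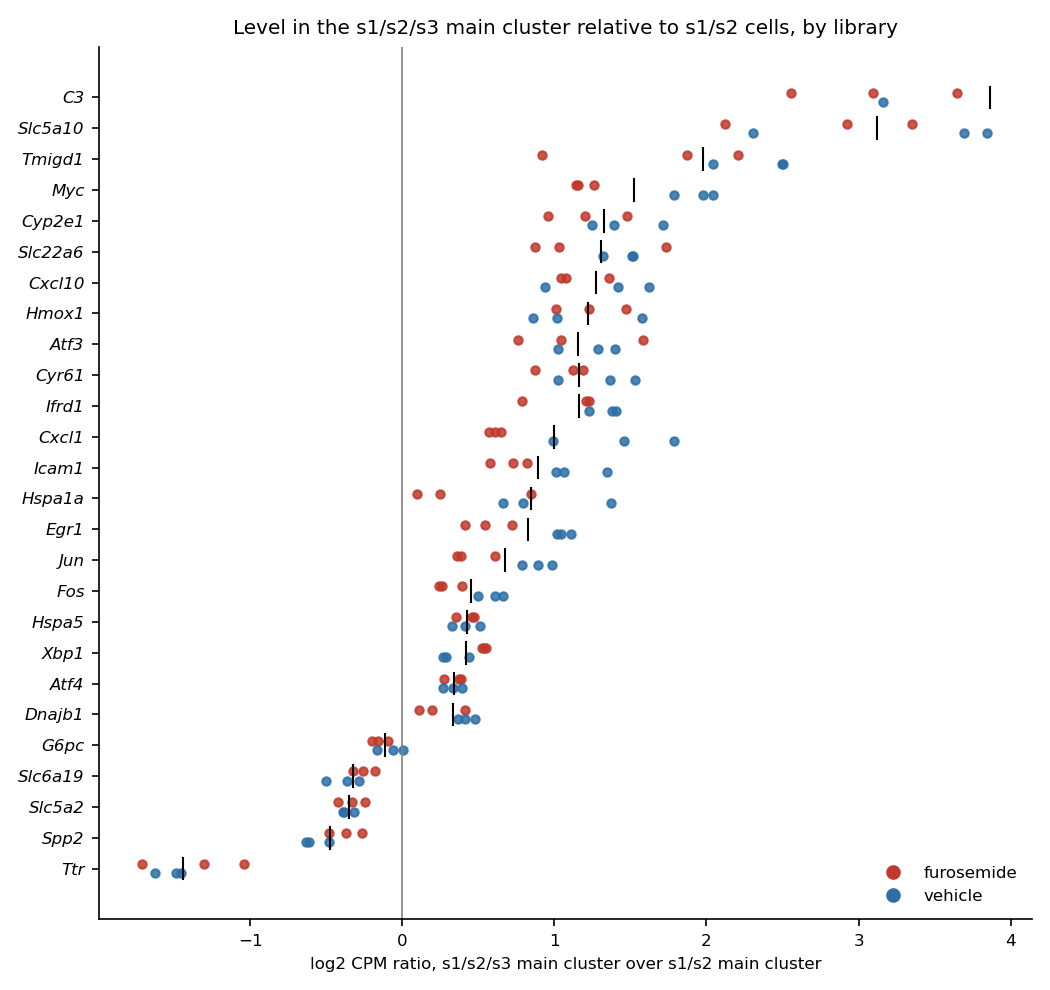
Log2 ratio of CPM in the s1/s2/s3 main cluster over s1/s2 cells for 26 genes; points are libraries (red furosemide, blue vehicle) and bars the ratio of means over 6 libraries. C3 has no point for vehicle libraries 1 and 5, where s1/s2 cells held none, and the stress genes from Atf3 to Dnajb1 lie right of 0 in every library.

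Set against all other proximal cells, the 10 genes with the highest ratios among 220 at 100 CPM or more were C3, Ptgds, Spry1, Sparc, Spp1, Pdgfb, Icam1, Cd74, Gatm and Ctgf. Spp1, osteopontin, averaged 22499 CPM against 4706 CPM (log2 2.26). Its level in s1/s2 cells was 21045 CPM and in s2/s3 cells 399.6 CPM, so the main cluster stood beside the first and far above the second. The ratio was 2.81 for Ptgds, which makes prostaglandin D2, 2.56 for Spry1, an inhibitor of receptor tyrosine kinase signalling, and 2.40 for Sparc, a matricellular protein. It was 2.14 for the growth factor Pdgfb, 2.07 for Icam1, 2.06 for Cd74, the invariant chain of class II antigen presentation, and 2.01 for the matricellular Ctgf. Of the 7972 other proximal cells 4475 were s2/s3 cells, so these ratios alone do not set the cluster apart from s1/s2 cells. Sparc averaged 179 CPM with furosemide and 162 CPM with vehicle in the main cluster. In s1/s2 cells it averaged 135 CPM with furosemide and 30.8 CPM with vehicle. Cd74 was seen in 2.35% of thinned members and 4.44% of cells outside the proximal classes. The 7 immune markers summed to 194 to 281 CPM in furosemide libraries of the cluster and 273 to 724 CPM in vehicle libraries, with Cd4 at 0, and their part in the Cd74 level was not tested. The 5 lowest were Psca, Slc7a13, Acsm3, Slc22a7 and Slc5a1, with ratios of -6.53 to -4.92. Of the 220 genes 179 (81.4%) were higher and 22 (10%) lower in every library. Kap gave 438616 CPM in s2/s3 cells and so lowers the share of all their other genes. With Kap left out of the totals, ratios to all other proximal cells were lower by a median of 0.54 and those to s2/s3 cells by 0.80. On that scale C3 had 3.10 and Gatm 1.5 over all other proximal cells.

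Some genes were spread more evenly over the members than others. Sampling alone makes genes of low level, such as Hspa1a, look less even. The tenth of thinned cells with the highest value held 17.7% of Slc5a2 counts and 25.7% of Fos counts. For Ttr that share was 90.5%, for Kap 88.0%, for Hspa1a 82.9% and for Cxcl10 55.9%. Ttr was thus carried by a minority in each library, seen in 22.9 to 25.9% of thinned members with furosemide and 22.4 to 29.4% with vehicle, beside 2.50% outside the proximal classes. Gpx1, a glutathione peroxidase, made up 9.01% of the cluster's counts. Pck1, which commits carbon to glucose production, made up 4.40% and Kap 2.36%. In all, 46 panel genes had no count in the cluster, which for each allows a level of up to 0.884 CPM (3 counts over the cluster, counting error only). They include Aqp2 of principal cells, Trpv5 of the connecting tubule and Pvalb of the distal convoluted tubule.

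The share of the cluster among kidney cells overlapped between treatments. It made up 9.73%, 8.06% and 12.1% of cells in furosemide libraries 2, 4 and 6 (Wilson 95% intervals 8.73 to 10.8%, 7.30 to 8.90% and 11 to 13.2%). In vehicle libraries 1, 3 and 5 it made up 10.04%, 11.4% and 9.92% (9.16 to 11%, 10.4 to 12.6% and 8.997 to 10.9%). The means were 9.96% ± 2.01 with furosemide and 10.5% ± 0.838 with vehicle (SD, n = 3 each, two-sided exact permutation p = 0.8). Of the class it held 82.7% ± 6.6 with furosemide and 79.0% ± 1.04 with vehicle (exact permutation p = 0.5), and the median total per member cell was 1342 ± 87.9 counts with furosemide and 1469 ± 268 with vehicle (exact permutation p = 0.7). Adjusted over these 3 tests p was 0.8 for each, and 3 against 3 libraries cannot go below 0.1. The authors had brought cell numbers of both treatments to the same total, so shares are relative.

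The main comparison asked which genes differ in these cells after a week of furosemide. Of 275 genes tested, 1 was called by edgeR's quasi-likelihood test at an adjusted p under 0.05 (0.364%), Kap, which was lower, and none was called higher (0%). At an unadjusted p under 0.05 there were 20 genes (7.27%), and furosemide libraries lay wholly above vehicle libraries for 18 genes (6.55%) and wholly below for 16 (5.82%). Levels in the comparison of treatments are CPM scaled by TMM, which corrects for differences in composition between libraries.

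Kap is a protein of proximal cells under androgen control in mice. It had 12973, 7631 and 10305 CPM in furosemide libraries 2, 4 and 6, and 42210.1, 27391 and 39399 CPM in vehicle libraries 1, 3 and 5. All furosemide libraries lay below all vehicle libraries. The means were 10303 ± 2671 CPM with furosemide and 36333 ± 7871 CPM with vehicle (SD, n = 3 each), a log2 fold change of -1.82 ± 0.25 (SE; edgeR adjusted p = 0.037). The call was lost without furosemide library 4 (adjusted p = 0.0553) or 6 (0.174) and without vehicle library 1 (0.0915) or 5 (0.104), with Kap fold changes of -1.83 to -1.66. The call was also lost in the class as a whole, where sub1 cells join the cluster, and without the cells in the top 5% of totals (-1.53, adjusted p = 0.0812). In the whole class the Kap fold change was -0.59 (edgeR adjusted p = 0.725).

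Kap was spread unevenly over the members. Most member cells held little Kap, with a library median of 0.106% to 0.112% of a cell's counts with furosemide and 0.129% to 0.181% with vehicle. Cells with Kap at 5% or more of their counts, a limit chosen after the values were seen, were 16 of 297, 14 of 358 and 17 of 433 in furosemide libraries 2, 4 and 6. In vehicle libraries 1, 3 and 5 they were 59 of 410, 44 of 379 and 45 of 365. The shares were 5.39%, 3.91% and 3.93% with furosemide (Wilson intervals 3.34 to 8.57%, 2.34 to 6.46% and 2.47 to 6.20%) and 14.4%, 11.6% and 12.3% with vehicle (11.3 to 18.1%, 8.76 to 15.2% and 9.34 to 16.1%). The groups did not overlap, with means of 4.41% ± 0.848 with furosemide and 12.8% ± 1.44 with vehicle (SD, n = 3 each). The limit is one of Kap itself, so these shares describe the Kap difference over cells and add no test to it. They were also apart at limits of 1%, 2%, 10% and 20%, as the plot of Kap-rich cells shows. Some cells lay near the limit: 3, 5 and 4 cells between 4% and 6% with furosemide and 9, 11 and 8 with vehicle.

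**Figure D3:**
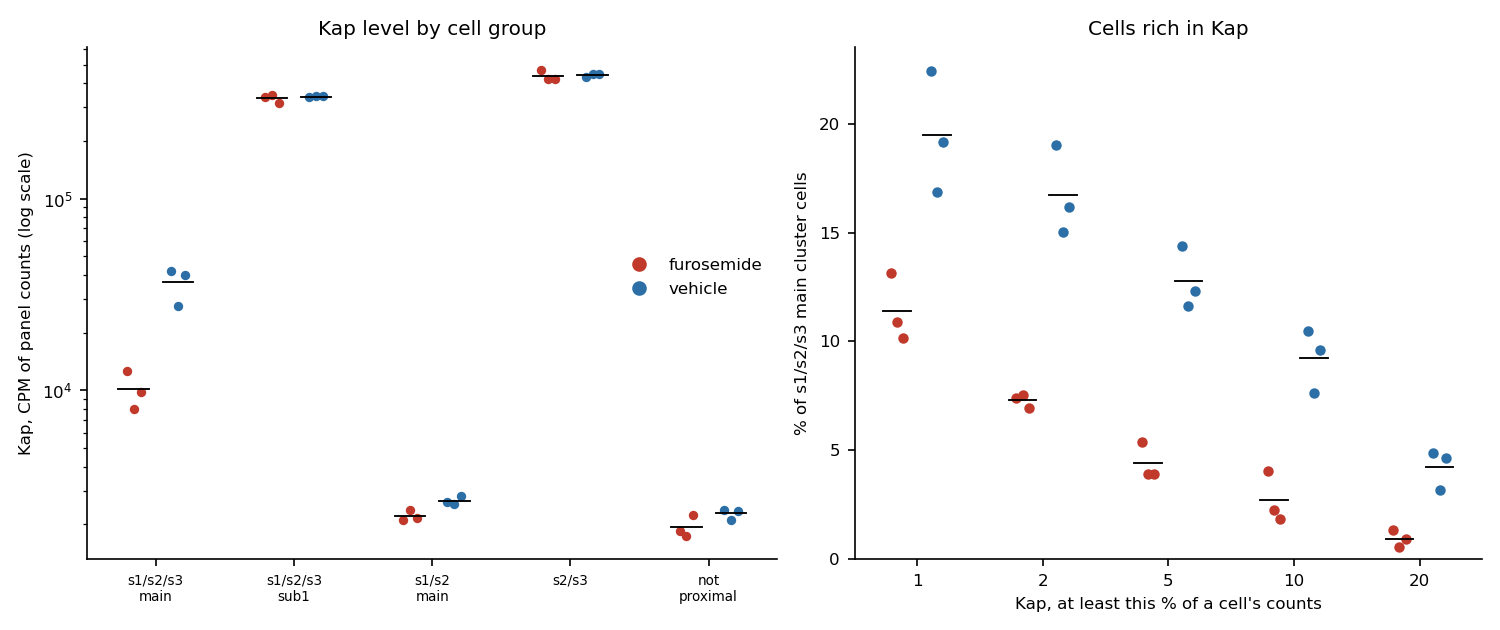
Left, Kap in CPM of panel counts (log axis) in the s1/s2/s3 main cluster, sub1 cells, s1/s2 cells, s2/s3 cells and cells outside the proximal classes; right, share of main cluster cells with Kap at or above 1, 2, 5, 10 or 20% of a cell's counts. Points are libraries and bars means of 3. In the main cluster every furosemide library lies below every vehicle library, and the Kap-rich share averages 4.41% with furosemide and 12.8% with vehicle at the 5% limit.

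Kap-rich cells carried 64.4% to 81.3% of the cluster's Kap counts in furosemide libraries and 92.1% to 94.0% in vehicle libraries. Among themselves they held 157458, 155727 and 140674 CPM of Kap with furosemide and 206385, 195761 and 230506 CPM with vehicle, again without overlap. In the remaining members Kap averaged 2590 ± 340.0 CPM with furosemide and 2886 ± 378 CPM with vehicle, overlapping. Outside the proximal classes it averaged 1939 ± 257 CPM with furosemide and 2283 ± 142 CPM with vehicle. There it was seen in 43.8% of thinned cells, against 51.4% in the main cluster.

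Kap-rich members also differed in other genes, which the Kap limit did not use. Only genes picked as those of late or of early proximal cells were compared, so no share over the panel is given. With Kap left out of the totals, Slc7a13 was 11.8 times, Napsa 3.73 times and Slc5a10 3.46 times as high by library means as in the remaining members, each higher in 6 of 6 libraries. The Kap-rich cells were few per library and the spread was wide. In them Slc5a10 had 574 ± 614 CPM and Slc7a13 529 ± 225 CPM (SD over libraries). Cyp2e1 was 2.79 times, Inmt, a methyltransferase, 2.54 times and Acy3 2.08 times as high, again in 6 of 6. Spp2 was 0.524 times, G6pc 0.622 times, Slc4a4 0.685 times, Slc6a19 0.691 times and Slc5a2 0.738 times as high, lower in 6 of 6. The higher genes had been picked as genes of s2/s3 cells, so that they belong to those cells is no result. Slc7a13 at 529 CPM in Kap-rich members stayed far below the 18849.8 CPM of s2/s3 cells on this scale. The median total of Kap-rich members was 1473.5, 1173.5 and 2011 counts in furosemide libraries 2, 4 and 6 and 1690.0, 2008 and 1838 counts in vehicle libraries 1, 3 and 5. The other members had 1301, 1294 and 1414.5 counts with furosemide and 1141, 1717 and 1343 counts with vehicle. Doublets had been removed by the authors per the file names, none were sought here, and the part of any still present was not tested.

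Kap is also among the genes that part the clusters, so a border between clusters can move with it. At 5% Kap or more lay 92.6% to 100% of sub1 cells and 99.3% to 100% of s2/s3 cells in each library, but 0.211% to 0.310% of s1/s2 cells in furosemide libraries and 0.545% to 0.619% in vehicle libraries. The s2/s3 cells made up 22.9%, 22.4% and 24.2% of all cells in furosemide libraries and 19.4%, 12.5% and 19.2% in vehicle libraries. Sub1 cells made up 2.23%, 2.43% and 1.37% with furosemide and 2.50%, 3.05% and 2.80% with vehicle. The s2/s3 share was thus higher and the sub1 share lower in every furosemide library, and fewer Kap-rich members and Kap-rich cells placed in another cluster cannot be told apart.

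The edgeR interaction test gave these differences between the furosemide effect on Kap in the main cluster and in its neighbours. Since Kap parts the clusters, assignment holds it high in sub1 and s2/s3 cells and low in s1/s2 cells in both treatments. The values against each of them are a description. Their p-values and calls add no test to the Kap difference within the main cluster. In sub1 cells Kap had 333122 ± 15693 CPM with furosemide and 340730.0 ± 2127 CPM with vehicle. The effect in the main cluster was lower by a log2 difference of -1.87 ± 0.23 (SE; edgeR interaction with the library as a block, adjusted p = 0.00254). It was the 1 gene called of 265 (0.377%, beside 2.64% at an unadjusted p under 0.05), and was called with each library left out in turn (adjusted p 6.05e-05 to 0.0225). In s2/s3 cells Kap had 436296 ± 26847 CPM with furosemide and 440935 ± 10633 CPM with vehicle, and the difference was -1.95 ± 0.25 (edgeR adjusted p = 0.00999, the 1 gene called of 309, 0.324%, beside 5.83% unadjusted). That call was lost without any 1 library other than vehicle library 3 (adjusted p 0.0644 to 0.12). In s1/s2 cells Kap had 2221 ± 140.1 CPM with furosemide and 2663 ± 137 CPM with vehicle, and the difference was -1.64 ± 0.25 (edgeR adjusted p = 0.0175). For Kap this call was lost in thinned cells (edgeR adjusted p = 0.105) and without furosemide library 6 (0.0969) or vehicle library 1 (0.179) or 5 (0.0674).

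Calb1, calbindin, a calcium-binding protein of the distal nephron, came next by p and was not called. It had 139, 267 and 207 CPM in furosemide libraries 2, 4 and 6 and 54.3, 16.9 and 27.5 CPM in vehicle libraries 1, 3 and 5, without overlap (log2 2.65 ± 0.45, edgeR adjusted p = 0.0757). It passed with DESeq2 (adjusted p = 7.14e-06), without a filter on low counts (0.0391) and in thinned cells (0.0099). It was seen in 3.07% of thinned members, against 41.5% outside the proximal classes, where its plain level was 22714, 18572 and 26111 CPM with furosemide and 8050.1, 8196 and 5835 CPM with vehicle. In s1/s2 cells Calb1 had 170.3 ± 29.2 CPM with furosemide and 56.0 ± 14.4 CPM with vehicle. S100g, another calcium-binding protein of the connecting tubule, had 2546, 1699 and 2286 CPM with furosemide and 1304, 1093 and 1625 CPM with vehicle in the cluster (0.70 ± 0.20, edgeR adjusted p = 0.488). Outside the proximal classes S100g had 96152 ± 26762 CPM with furosemide and 46305 ± 8316 CPM with vehicle. The 4 connecting tubule markers summed to 2069 to 2611 CPM in furosemide libraries of the cluster and 1121 to 1685 CPM in vehicle libraries, with Trpv5 at 0. Calb1 and S100g were higher with furosemide inside and outside the cluster, and the part of RNA from distal cells was not tested.

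The other genes named by their p did not pass. Trf, transferrin (0.89 ± 0.26), G6pc (0.49 ± 0.16) and Spp2 (0.30 ± 0.12) had furosemide values above all vehicle values (edgeR adjusted p 0.488 to 0.636). For G6pc these were 16841, 23588 and 22642 CPM with furosemide and 14426, 13988 and 16354 CPM with vehicle. The lowest furosemide library lay only just above the highest vehicle library. Hspa1a, an inducible heat shock protein (-1.44 ± 0.39), Igfbp5, a binding protein for insulin-like growth factors (-0.63 ± 0.18), Ccnd1, cyclin D1 (-0.72 ± 0.24), and Cxcl1 (-0.53 ± 0.18) had furosemide values below all vehicle values (edgeR adjusted p 0.488 to 0.636). Hspa1a had 418, 599.6 and 441 CPM with furosemide and 2109, 1157 and 701 CPM with vehicle. Its vehicle libraries spread more widely than its furosemide libraries, and DESeq2 called it (-1.45, adjusted p = 0.00843). In s1/s2 cells fitted alone the fold changes were -0.84 ± 0.22 for Hspa1a, -0.52 ± 0.14 for Igfbp5 and -0.66 ± 0.17 for Ccnd1. There G6pc was at 0.52 ± 0.16, Trf at 0.45 ± 0.24, Spp2 at 0.05 ± 0.16 and Cxcl1 at 0.16 ± 0.30. None of these was called in s1/s2 cells. Hspa1a was at -1.84 ± 0.42 in sub1 cells and -1.79 ± 0.45 in s2/s3 cells, uncalled in both. Outside the proximal classes Hspa1a had 4668, 2934 and 2250 plain CPM with furosemide and 5194, 5149 and 5467 CPM with vehicle, without overlap. Igfbp5 averaged 697 CPM with furosemide and 587 CPM with vehicle there. The part of RNA from other cells was not tested.

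**Figure D4:**
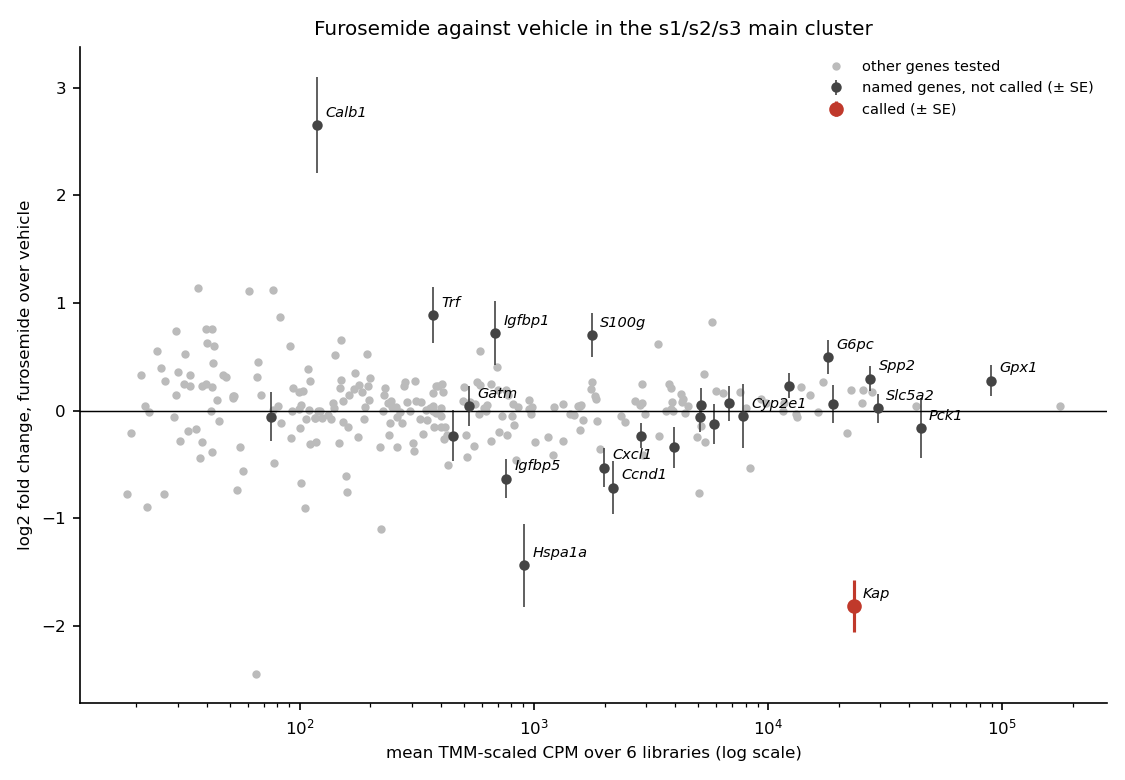
Log2 fold change of furosemide over vehicle in the s1/s2/s3 main cluster against mean TMM-scaled CPM (log axis) for the 275 genes tested; red, the gene called, dark grey, other named genes, both with SE, light grey, all others. Kap at -1.82 is called, Calb1 at 2.65 and Hspa1a at -1.44 are not.

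Of 25 core genes of the proximal tubule 21 were in the panel, 17 were tested and none was called. G6pc was at 0.49 ± 0.16, with the libraries given above, and the fold changes of the next 7 genes lay nearer to 0. Slc5a2 had 30676, 31433 and 26421 CPM with furosemide and 31731, 25683 and 29918 CPM with vehicle (log2 0.02 ± 0.13). Slc4a4 was at 0.07 ± 0.16, the glucose exporter Slc2a2 at 0.06 ± 0.16, Gatm at 0.04 ± 0.19 and Ugt3a2 at -0.06 ± 0.14. Fxyd2, a small regulatory membrane protein, was at -0.06 ± 0.23 and Pck1 at -0.16 ± 0.28. Libraries of both treatments overlapped for each of these. The organic anion transporters had libraries apart in opposite directions, neither called. Slc22a8 averaged 13191 ± 871 CPM with furosemide and 11232 ± 861 CPM with vehicle (0.23 ± 0.12, edgeR adjusted p = 0.713). Slc22a6 averaged 2641 ± 170.3 CPM with furosemide and 3105 ± 202 CPM with vehicle (-0.23 ± 0.12, edgeR adjusted p = 0.713). Igfbp1, a binding protein for insulin-like growth factors, was at 0.72 ± 0.30, Gpx1 at 0.28 ± 0.15, the FGF23 co-receptor Kl at -0.34 ± 0.19, lipoprotein lipase Lpl at -0.23 ± 0.24, Ttr at -0.13 ± 0.18 and Cyp2e1 at -0.05 ± 0.30 (edgeR adjusted p 0.667 to 0.977). The 4 core genes of the panel that were not tested for low counts were Slc5a1 (5.83 CPM), Slc9a3 (1.19 CPM), Fabp1 (21.9 CPM) and Nr0b2 (0.785 CPM).

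No listed gene other than Kap was called, which stands on the list of detoxification genes (1 of 12 tested). Over all 275 genes the median log2 fold change was 0.04. The 7 tested S1 genes were all above 0 with a median of 0.07, beside 156 of all 275, and 2 of them, G6pc and Spp2, had libraries wholly higher, beside 6.55% of all genes. The median was 0.06 for 7 glucose genes, 0.04 for 7 sodium, proton and bicarbonate transport genes and -0.17 for 4 organic ion transporters. In the renin-angiotensin list of 4 genes, Agtr1a, the receptor for angiotensin II, averaged 622 ± 32.8 CPM with furosemide and 517 ± 80.8 CPM with vehicle (0.27 ± 0.15, edgeR adjusted p = 0.713). The 6 genes of the insulin-like growth factor axis had a median of -0.12. Igf1r, its receptor, averaged 353 ± 8.88 CPM with furosemide and 394 ± 12.9 CPM with vehicle (-0.16 ± 0.11, edgeR adjusted p = 0.758). The median was -0.27 for 10 growth genes, -0.26 for 9 matricellular genes, 0.18 for 7 injury genes and 0.24 for 5 hypoxia, iron and heme genes. The 10 immediate early and stress genes had a median of -0.25, 7 of them below 0, beside 119 of all 275. Hspa1a and Jun had libraries wholly lower, beside 5.82% of all genes.

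The furosemide effects in the cluster and in s1/s2 cells were compared by edgeR's interaction test. It called 8 of 280 genes (2.86%, beside 8.93% at an unadjusted p under 0.05). The effect in the main cluster was higher for S100g. It was lower for Cxcl1, Jun, Egr1, Myc, Fos, Sparc and Kap, the last a description since Kap parts the clusters. Of the 10 immediate early and stress genes 3 were among them (Jun, Egr1 and Fos), and without vehicle library 5 none of the 8 was called. Jun, a partner of Fos, had 4653, 4888 and 4832 plain CPM in furosemide libraries of the main cluster and 6145, 5772 and 6002 CPM in vehicle libraries. In s1/s2 cells it had 3617, 3735 and 3173 CPM with furosemide and 3555, 3102 and 3039.5 CPM with vehicle. The treatments were apart in the main cluster and overlapped in s1/s2 cells, a log2 difference of effects of -0.48 ± 0.09 (SE; edgeR adjusted p = 0.00851).

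Cxcl1 had 1682, 1977 and 1216 CPM with furosemide and 2791, 2174 and 2158 CPM with vehicle in the main cluster, and averaged 1068 ± 267 CPM with furosemide and 938 ± 409 CPM with vehicle in s1/s2 cells (-0.84 ± 0.15, edgeR adjusted p = 0.00851). Egr1, an immediate early transcription factor, averaged 2472 ± 385 CPM with furosemide and 3385 ± 486 CPM with vehicle in the main cluster, and 1670.1 ± 185 CPM with furosemide and 1625 ± 184 CPM with vehicle in s1/s2 cells (-0.54 ± 0.11, edgeR adjusted p = 0.00851). Mean levels of both were higher in the main cluster than in s1/s2 cells in either treatment, by less with furosemide. S100g averaged 2142 ± 343 CPM with furosemide and 1354 ± 279.9 CPM with vehicle in the main cluster, and 1628 ± 171 CPM with furosemide and 1688 ± 323 CPM with vehicle in s1/s2 cells (0.66 ± 0.12, edgeR adjusted p = 0.00851). Fos averaged 19846 ± 1903 CPM with furosemide and 23369 ± 1379.5 CPM with vehicle in the main cluster (-0.34 ± 0.08, edgeR adjusted p = 0.0275). For Myc (-0.77 ± 0.17, 0.0181) and Sparc (-2.03 ± 0.48, 0.0275) the treatments overlapped in the main cluster, and Sparc was higher in every furosemide library of s1/s2 cells. Outside the proximal classes Jun averaged 4004 ± 191 CPM with furosemide and 5302 ± 86.9 CPM with vehicle, Egr1 7699.6 ± 1369 CPM with furosemide and 10619 ± 1272 CPM with vehicle, and Fos 38372 ± 2024 CPM with furosemide and 43970.3 ± 1949 CPM with vehicle. All furosemide libraries were below all vehicle libraries there. In the main cluster Egr1 and Fos were apart on the plain scale and overlapped on the TMM scale, while Jun was apart on both, and the part of RNA from other cells was not tested.

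**Figure D5:**
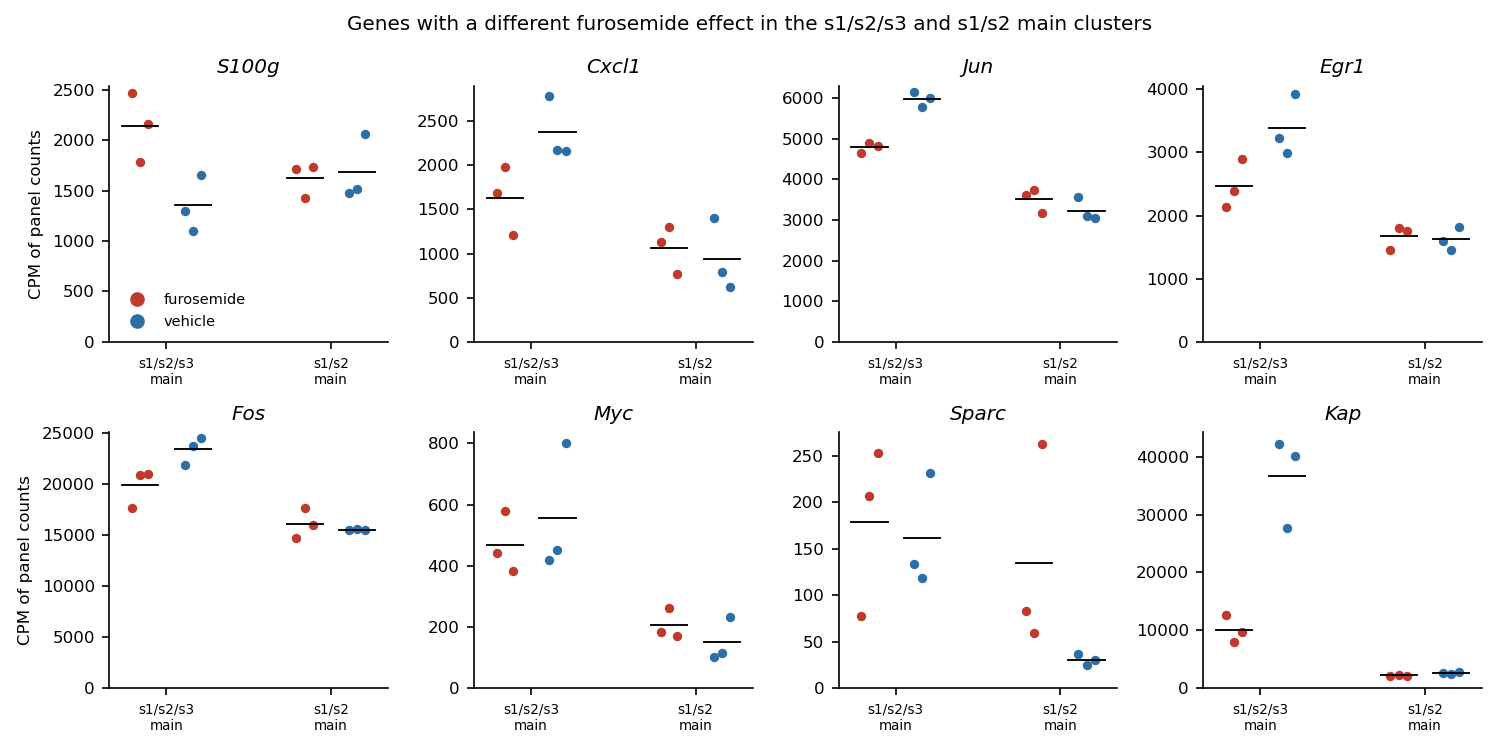
Levels in CPM of panel counts of the 8 genes whose furosemide effect differed between the s1/s2/s3 main cluster and s1/s2 cells; points are libraries (furosemide left of vehicle) and bars means of 3. On this scale Jun, Fos, Egr1 and Cxcl1 are lower with furosemide in the main cluster (Fos and Egr1 overlap on the TMM scale), and in s1/s2 cells their treatments overlap.

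The calls against s1/s2 cells leaned on single libraries. Without vehicle library 1 there were 15 calls, and without vehicle library 5 none. Without furosemide library 2, 4 or 6 there were 1, 3 and 3 calls, and without vehicle library 3 there were 4. With cells thinned to 500 counts Cxcl1 and S100g alone were called. Against s2/s3 cells Cxcl1 had a difference of -1.18 ± 0.22 and Gprc5a, a retinoid-induced receptor, 2.38 ± 0.81, neither called (edgeR adjusted p 0.0793 and 0.802). Against sub1 cells Igfbp1 had 1.28 ± 0.36 (edgeR adjusted p = 0.402).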

How the data were processed

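Kidneys were dissociated and single cells captured on BD Rhapsody beads, and the authors deposited whole-number counts per cell for the 456 panel genes, with doublets removed and cell numbers made equal between treatments, per the file names. Bowtie2 2.2.9 is named in the submitters' processing notes; whether the counts are reads or molecules is not given in the sources used here. Cell names and clusters came from the deposited annotation, which also gives each cell's library and treatment. Its library numbers (1 to 6) could not be tied to the replicate numbers of the labels.

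Counts were summed per library and cell group. The furosemide test was edgeR 4.0.16 quasi-likelihood (limma 3.58.1, R 4.3.3) with TMM scaling, filterByExpr, robust fitting and Benjamini-Hochberg adjustment over all genes tested, called at an adjusted p under 0.05. Effects were compared between cell groups by an interaction term with the library as a block. Shares and totals had two-sided exact permutation tests (scipy 1.17.1), which 3 against 3 libraries limit to 0.1. Library totals were 4928550, 7635509 and 5224330 counts with furosemide and 6315516, 6097059 and 4819988 with vehicle. Intervals and floors cover counting error only. DESeq2 1.42.0, other scalings, filters, thinning to 500 counts and leaving out each library were alternatives. The genes named were the called genes, filled to 5 per direction by p, the core genes, the top genes of each interaction, and the 10 highest and 5 lowest by ratio to other proximal cells; other named genes come from the lists or were picked with their values known. The edgeR fit was tested on simulated data. The members and lists were chosen with earlier results of these data known. Some genes of the panel are not reported here.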

Additional observations from a re-analysis of the deposited data

Results flagged for a closer look

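The 10 results below are listed because the furosemide effect in the s1/s2/s3 main cluster differed from that in a neighbouring population by edgeR's interaction test with Benjamini-Hochberg adjustment over all genes tested. For Kap the effect in the main cluster minus that in the other cells was -1.87 against sub1 cells, -1.64 against s1/s2 cells and -1.95 against s2/s3 cells on the log2 scale. The call against s1/s2 cells was lost in thinned cells and without furosemide library 6 or vehicle library 1 or 5, and that against s2/s3 cells without any 1 library other than vehicle library 3. Kap also parts the clusters, high in sub1 and s2/s3 cells and low in s1/s2 cells. Its values and calls against each of them are a description.

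Against s1/s2 cells the difference was 0.665 for S100g, -0.837 for Cxcl1, -0.482 for Jun, -0.539 for Egr1, -0.773 for Myc, -0.338 for Fos and -2.03 for Sparc. For Sparc and Myc the libraries of both treatments overlapped in the main cluster. None of these 7 was called without vehicle library 5.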

How the results depend on the processing

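The count of 1 gene called with furosemide was also 1 under RLE scaling, library size alone and equal cell numbers. Membership by the second clustering alone takes the same cells, so its equal count was fixed and is no check. The count was 3 with DESeq2, 2 with no filter on low counts and 2 with thinned cells. It was 0 without the top 5% of totals and in the whole class, and 0 to 1 with a library left out. It was also 0 without Kap and without cells at 5% Kap or more. Those settings take out the called gene or most of its counts, so they show only that no other gene was called. Against s1/s2 cells, 2 interactions were called in thinned cells and 0 to 15 with a library left out. Against s2/s3 cells there were 2 in thinned cells and 0 to 1 with a library left out, and against sub1 cells 1 to 2. Genes at least 1 log2 unit above other proximal cells were 96, 56 in thinned cells and 29 without Kap.

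With a library left out, the difference in share ranged from -1.56 to 0.438 percentage points, reversed without furosemide library 4. The difference in median total ranged from -239.8 to 21.7 counts, reversed without vehicle library 3.

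Uncalled fold changes near 0 changed sign. Without the top 5% of totals Gatm was -0.0039, Slc4a4 -0.0034, Slc5a2 -0.0467 and Fxyd2 0.0091. Without cells at 5% Kap or more Gatm was -0.0487, Slc5a2 -0.056, Slc2a2 -0.0167 and Cyp2e1 0.191. In thinned cells Slc5a2 was -0.0332 and Cyp2e1 0.0077. Slc5a2 was -0.0031 by library size, -0.00086 with DESeq2 and -8.58e-05 in the whole class. With a library left out Gatm ranged from -0.177 to 0.182, Ugt3a2 from -0.172 to 0.0074, Slc4a4 from -0.0786 to 0.145, Slc5a2 from -0.0886 to 0.0851 and Slc2a2 from -0.116 to 0.118. Pck1 ranged from -0.441 to 0.0885, Fxyd2 from -0.169 to 0.0037, Cyp2e1 from -0.449 to 0.137 and Ttr from -0.264 to 0.0439. The cause was not tested.

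No paired analysis was possible because the deposited library numbers could not be tied to the replicate numbers of the labels. The 3 libraries per treatment limit what the tests can show, and most for genes of low counts.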
